A study of Mus musculus with 8 samples.

Results

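The genes described here encode the extracellular matrix and the proteins that act on it: collagens, laminins, fibrillins, fibulins, elastin, fibronectin, Sparc family and thrombospondin proteins, small proteoglycans, lysyl oxidases, Adamts proteins, Timp inhibitors and insulin-like growth factor binding proteins. They were taken by gene symbol from the deposited table, with Igfbp6 left out, which gave 61 of its 2000 genes. The cells came from tumours of Hepa1-6, a mouse hepatoma cell line, dissociated with enzymes, and their RNA was counted cell by cell in droplets, from the 3′ end, with unique molecular identifiers (UMIs). The labels give 4 groups: unedited (WT) tumours in animals given PBS into the peritoneum, unedited tumours in animals given an antibody against PD1 by that route, and Soat1-edited tumours under each of these treatments. The edited cells are named knockout in the titles and knockdown in the genotype field. Each group has a cDNA and an oligo entry, 8 in all, counted as 1 sample per group, and the strain and age of the animals are not given in the sources used here.

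The table holds 53528 cells whose names end in a number from 1 to 6. These numbers divide the cells into 6 sets of 7569 to 11813 cells that nothing ties to the 4 groups, so no genotype or treatment was compared, and whether a set is a sample is not given in the sources used here. Set 1 (9370 cells) held values from which whole UMI counts were recovered, with 1001 to 261833 UMIs per cell and a median of 11098.5. In sets 2 to 6 every cell held values below 0, so a step changed these sets that the sources used here do not give, and they are described on the deposited natural log scale only. Whether that step drew the sets together is not known, so a sign shared by all 6 sets is not read as an independent repeat of set 1. Cell names are running numbers rather than bead barcodes, and 12741 of 22421 recur in more than 1 set, so barcodes shared between sets could not be counted. The table was therefore treated as 1 pooled sample without replicates, no p-value was computed, and every interval below is a 95% interval of counting error.

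Fibrillar collagens are secreted as procollagens, folded with the chaperone Serpinh1, trimmed at their ends with the help of Pcolce and crosslinked by the Lox enzymes. In most tissues this matrix is made by fibroblasts and mural cells, while endothelial cells and the cells beside them lay down basement membrane of type IV collagen and laminin. Hepatocytes and liver tumours secrete fibronectin and insulin-like growth factor binding proteins, among which Igfbp1 is a liver product known to respond to fasting, insulin and low oxygen.

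Cells were put into classes by markers that are not among the 61 genes. A cell was called fibroblast-gated if at least 6 of 29 fibroblast and mural cell markers had a value above 0.3, hepatoma-gated with at least 10 of 23 liver and epithelial markers, macrophage-gated with at least 3 of 9, and T-cell-gated with at least 5 of 13, with limits on the markers of the other classes. This gave 780 fibroblast-gated cells in the 6 sets (66, 55, 319, 134, 81 and 125), 24229 hepatoma-gated, 4521 macrophage-gated and 12896 T-cell-gated cells, while 9985 cells (18.7%) entered no gate. The fibroblast gate was sharp, with 9 cells at its minimum, and the macrophage gate was not, with 1164 cells at its minimum and 2251 cells 1 marker below it. In set 1 the classes used held 66, 5533, 618 and 1211 cells with median totals of 5975, 19243, 2793.5 and 4702 UMIs before doublets were left out.

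Hepatoma RNA was present in every class. The 23 hepatoma markers summed to 22683 UMIs per 1000000 (CPM) in hepatoma-gated cells, 5130 in fibroblast-gated, 5277 in macrophage-gated and 2643 in T-cell-gated cells, and 3 of them had no UMI in fibroblast-gated cells while all had UMIs in the other 3 classes. The 29 fibroblast markers summed to 15640 CPM in fibroblast-gated cells against 43.6 in hepatoma-gated, 41.3 in macrophage-gated (7 without a UMI) and 18.2 in T-cell-gated cells (5 without a UMI). In fibroblast-gated cells the 9 macrophage markers summed to 76.2 CPM, the 13 T-cell markers to 53.2 and the 4 endothelial markers to 62.0. As a share of their hepatoma level, the hepatoma markers lay between 9.50% and 39.4% in fibroblast-gated cells (14 markers), 15.3% and 39.6% in macrophage-gated cells (19 markers) and 8.12% and 16.7% in T-cell-gated cells (20 markers).

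The regions before the start sites of 5 genes are shown because the results turn on them. Igfbp1 and Igfbp3, neighbours on chromosome 11, were the binding proteins with the highest hepatoma levels and shared the sign of their ratios with Lamb1 in 5 of the 6 hepatoma ranges of set 1, and Col1a2 and Col3a1 led the fibroblast-gated cells. The 250 bases before each start are from the RefSeq promoter table (GRCm38.p6), which held 50 promoters of 42 of the 61 genes. They are written from 5′ to 3′ on the gene's own strand, with matches to 5 short motifs, searched on both strands, in capitals.
Igfbp1, chr11:7197537-7197786, plus strand: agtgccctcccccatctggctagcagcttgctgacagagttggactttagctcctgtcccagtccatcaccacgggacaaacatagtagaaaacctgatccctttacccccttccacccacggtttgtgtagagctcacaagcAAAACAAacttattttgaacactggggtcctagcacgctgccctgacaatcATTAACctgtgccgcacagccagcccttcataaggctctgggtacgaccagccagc
Igfbp3, chr11:7213924-7214173, minus strand: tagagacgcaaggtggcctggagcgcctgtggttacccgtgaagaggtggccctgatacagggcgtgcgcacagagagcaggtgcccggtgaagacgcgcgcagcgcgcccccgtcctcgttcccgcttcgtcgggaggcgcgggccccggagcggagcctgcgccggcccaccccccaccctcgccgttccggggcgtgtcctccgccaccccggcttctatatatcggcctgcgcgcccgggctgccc
Lamb1, chr12:31265043-31265292, plus strand: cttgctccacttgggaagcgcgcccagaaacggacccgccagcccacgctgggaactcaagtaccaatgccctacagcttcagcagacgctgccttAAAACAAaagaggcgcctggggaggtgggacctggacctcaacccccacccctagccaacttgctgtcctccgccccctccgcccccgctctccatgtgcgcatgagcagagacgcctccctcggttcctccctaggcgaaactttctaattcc
Col1a2, chr6:4505368-4505617, plus strand: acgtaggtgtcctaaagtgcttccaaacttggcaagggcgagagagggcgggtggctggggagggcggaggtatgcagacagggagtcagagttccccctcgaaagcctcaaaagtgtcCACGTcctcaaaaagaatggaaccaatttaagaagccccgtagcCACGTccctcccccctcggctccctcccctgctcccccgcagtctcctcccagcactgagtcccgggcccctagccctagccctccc
Col3a1, chr1:45311288-45311537, plus strand: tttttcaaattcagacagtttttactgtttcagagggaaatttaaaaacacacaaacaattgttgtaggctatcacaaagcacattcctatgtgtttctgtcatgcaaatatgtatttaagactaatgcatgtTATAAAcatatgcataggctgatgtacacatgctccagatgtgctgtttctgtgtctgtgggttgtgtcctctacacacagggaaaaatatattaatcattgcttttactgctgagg

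The motifs were ACGTG (the core of a hypoxia response element), GTTAAT (an HNF1 half-site), AAAACAA (a FOXO-type element), TGANTCA (an AP-1 site) and TATAAA. Igfbp1 held a FOXO-type match that began 107 bases before the start and an HNF1 half-site that began 56 bases before it. Lamb1 held a FOXO-type match, Col1a2 held 2 ACGTG matches, Col3a1 held a TATAAA match and Igfbp3 held none of the 5, and no match overlapped another. ACGTG was found in 8 of the 50 member promoters (16%) and 16.6% of all 32851 promoters of this length. The corresponding shares were 8% and 6.43% for GTTAAT, 8% and 8.11% for AAAACAA, 6% and 6.75% for TGANTCA and 12% and 12.4% for TATAAA. The shares of the members were thus close to those of all promoters, and a match is a description of letters, not of a bound site.

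Most of the 61 genes, the fibrillar collagens first among them, were higher in fibroblast-gated cells than in the other 3 main classes. A gene was counted as called when its log2 ratio of (CPM + 1) was past 2-fold with at least 10 UMIs in both classes together. By this rule 54 of the 61 genes were higher in fibroblast-gated than in hepatoma-gated cells, against 28.4% of the 1921 genes with enough UMIs, and 2 were lower, Igfbp1 and Lamb3, against 28.8%. The median log2 ratio was 7.14 over the 61 genes and -0.28 over all genes, and 32 of the 61 were past 100-fold, as were 111 of all genes. Against macrophage-gated cells 56 of 59 genes were higher (33.5% of all genes) and 0 lower (27.7%). Against T-cell-gated cells 58 of 60 were higher (41.9% of all genes) and 1 was lower, Lamb3 (31.8%). Ordered by the log2 ratio of (CPM + 1), the leading genes over macrophage-gated cells were Col3a1, Col1a2, Col1a1 and Eln, with CPM ratios of 2148, 1407 and 1264 for the first 3 and 0 UMIs in macrophage-gated cells for Eln. Over T-cell-gated cells the same order gave Col1a2, Postn, Col3a1 and Mgp, with CPM ratios of 3372, 5672 (4 UMIs in T-cell-gated cells), 2265 and 14682, the last of which rests on 1 UMI there (2630 to 580430). Each UMI stands for 1 transcript end, so CPM values of different genes can be compared without regard to length.

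**Figure D1:**
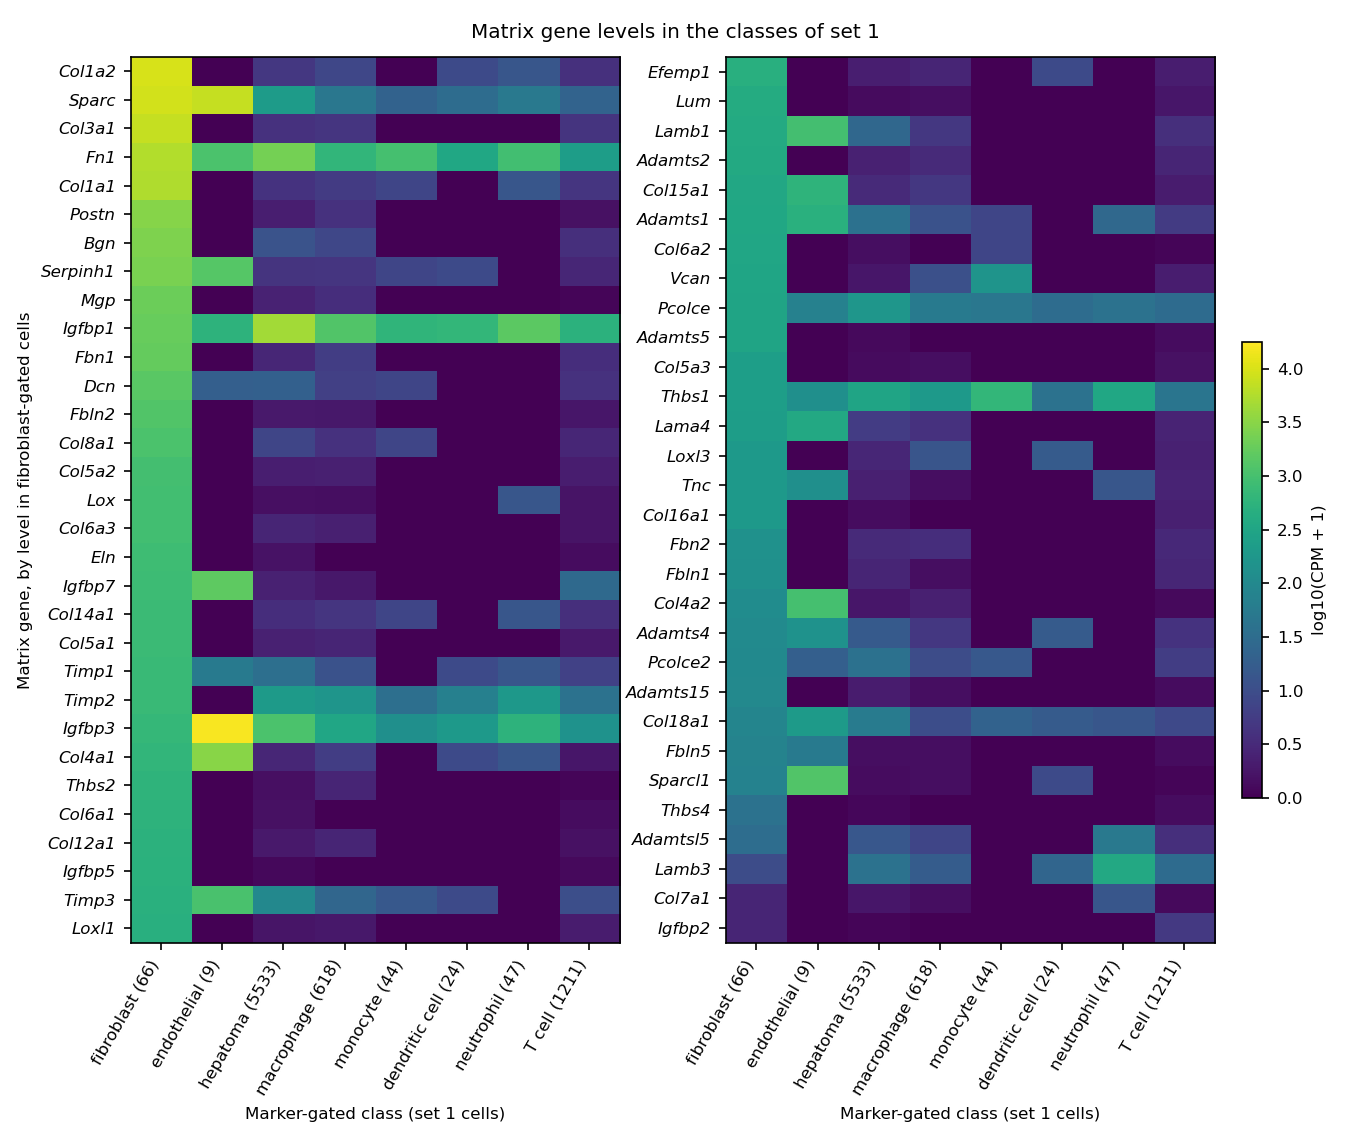
Levels of the 61 matrix genes in 8 marker-gated classes of set 1, as log10(CPM + 1) from summed UMIs, with the number of cells of each class in parentheses and genes ordered by their level in fibroblast-gated cells. Col1a2, at 9902 CPM, heads the fibroblast column, Igfbp1 and Fn1 are the brightest rows of the hepatoma column, and Igfbp3 reaches 16466 CPM in the 9 endothelial-gated cells.

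Col1a2, a chain of type I collagen, was the leading member in fibroblast-gated cells at 9902 CPM (9644 to 10165), against 3.89 CPM in hepatoma-gated, 7.04 in macrophage-gated and 2.94 in T-cell-gated cells. Col3a1, the type III chain, reached 7558 CPM against 2.99, 3.52 and 3.34 in the same order. Col1a1, the other type I chain, reached 5557 CPM against 3.20, 4.40 and 3.47. The ratios of fibroblast-gated to hepatoma-gated cells were 2545 (2330 to 2785) for Col1a2, 2528 (2286 to 2802) for Col3a1 and 1735 (1571 to 1919) for Col1a1. Postn, a matricellular protein of remodelling tissue, came with them at 3028 CPM and a ratio of 2393 (2048 to 2809). Within the 66 cells the Col1a2 count ran from 0 to 609 UMIs with a median of 58.5, and 65 cells held it. In the other 3 classes each of these 4 genes stayed below 8 CPM.

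Col1a2, Col3a1, Col1a1 and Postn were higher in fibroblast-gated cells than in the other 3 main classes in all 6 sets. Mean deposited values of Col1a2 in fibroblast-gated cells lay between 3.87 and 4.48, the median set being at 4.40, and in hepatoma-gated cells between 0.02 and 0.04. The difference for Col3a1 ran from 3.47 to 4.22. Of the 61 genes, 54 had a higher mean in fibroblast-gated than in hepatoma-gated cells in all 6 sets, as did 22.9% of all genes. The mean was lower in all 6 sets for 5 genes, Igfbp1, Igfbp3, Thbs1, Lamb3 and Col18a1, against 45% of all genes, and Igfbp2 and Col7a1 differed in sign between sets. The CPM ratio of Col18a1 in set 1 was 1.49 (1.10 to 1.98), opposite in sign to its differences of means, of -0.0044 to -0.15. Against macrophage-gated cells 55 genes were higher in all sets (27% of all genes), and against T-cell-gated cells 58 (30.9%).

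Other collagens followed type I and III at lower levels. In fibroblast-gated cells Col8a1 stood at 1120 CPM, Col5a2 at 937, Col6a3 at 918, Col14a1 at 787, Col5a1 at 781, Col6a1 at 549, Col12a1 at 544, Col6a2 at 324, Col5a3 at 239 and Col16a1 at 193. Their hepatoma-gated levels lay between 0.33 CPM for Col5a3 and 6.70 CPM for Col8a1. Col6a1, Col6a2 and Col16a1 had 0 UMIs in 618 macrophage-gated cells, so their fibroblast levels were at least 416-fold, 246-fold and 146-fold higher when set against a floor of 3 UMIs. Eln, the elastin gene, with 854 CPM in fibroblast-gated cells, was at least 647-fold higher by the same floor. Col7a1, the anchoring fibril collagen, had 1 UMI in fibroblast-gated cells and 0.79 CPM in hepatoma-gated cells, with a ratio of 2.23 (0.06 to 12.7).

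Collagen-processing genes followed the collagens. Serpinh1, the collagen chaperone, stood at 2486 CPM in fibroblast-gated cells and 3.44 CPM in hepatoma-gated cells. The crosslinking genes Lox, Loxl1 and Loxl3 stood at 936, 473 and 195 CPM, and their ratios over hepatoma-gated cells were 1982 (1533 to 2601), 642 (510 to 814) and 104 (82.2 to 130). Adamts2, which removes the amino-terminal propeptide of procollagen, stood at 383 CPM against 1.44. Pcolce, the enhancer that acts at the other end, was less divided, at 307 CPM in fibroblast-gated, 170 in hepatoma-gated, 53.7 in macrophage-gated and 29.5 in T-cell-gated cells. Its ratio of 1.81 (1.55 to 2.10) over hepatoma-gated cells was not past 2-fold, and without the deepest fibroblast-gated cell it was 2.02 (1.72 to 2.36), which was past it on the log2 ratio of (CPM + 1).

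Basement membrane genes were present in fibroblast-gated cells and led by type IV collagen. Col4a1 stood at 617 CPM, Lamb1 at 399, Col15a1 at 349, Lama4 at 227, Col4a2 at 115 and Col18a1 at 85.1. Col4a1 had 1.86 CPM in hepatoma-gated cells, whereas Lamb1, a laminin beta chain, had 25.1 and Col18a1, the source of endostatin, had 57.1. Endothelial markers were low in these cells (62.0 CPM summed, 1 of 4 without a UMI), and their part in these levels was not tested. Lamb3, the beta chain of epithelial laminin-332, was the reverse of the rest, with 8.86 CPM in fibroblast-gated cells (5 UMIs), 38.4 in hepatoma-gated, 16.3 in macrophage-gated and 29.8 in T-cell-gated cells.

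Among proteoglycans and glycoproteins, Sparc and Fn1 were shared by fibroblast-gated and hepatoma-gated cells. Sparc, a collagen-binding matricellular protein, had 9094 CPM (8847 to 9346) in fibroblast-gated cells and 211 in hepatoma-gated cells, a ratio of 43.1 (41.8 to 44.4). Fn1, fibronectin, had 5844 CPM (5646 to 6047) and 2293 CPM, a ratio of 2.55 (2.46 to 2.64). Over the 6 sets the mean of Fn1 ran from 3.80 to 4.38 in fibroblast-gated and from 3.03 to 3.11 in hepatoma-gated cells, which did not overlap. Bgn, the proteoglycan biglycan, had 2670 CPM and 11.1 CPM, Dcn, decorin, had 1446 and 18.8, and Lum, lumican, had 413 and 0.31. Mgp, the matrix Gla protein that limits calcification, had 1960 and 1.52, and its means in fibroblast-gated cells varied more over the sets, from 0.63 to 1.74. Vcan, versican, had 308 CPM in fibroblast-gated and 0.82 in hepatoma-gated cells.

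**Figure D2:**
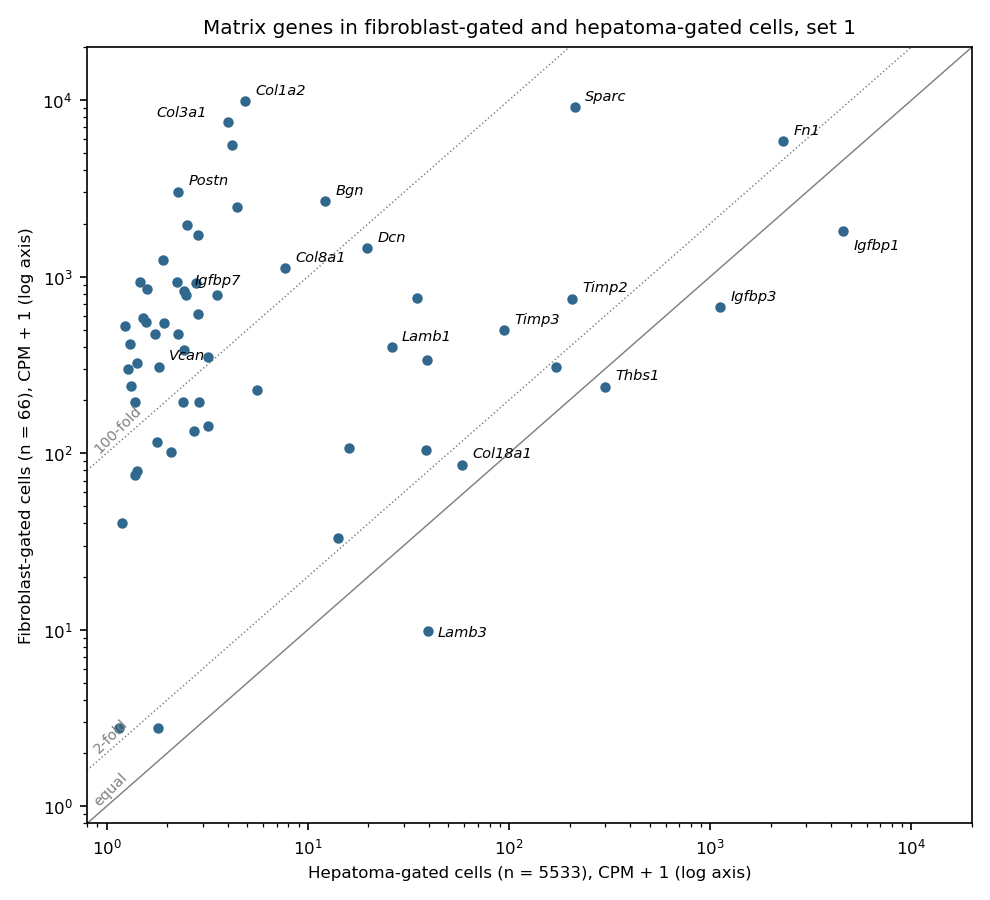
Each point is 1 of the 61 matrix genes of set 1, placed by its CPM + 1 in hepatoma-gated cells (horizontal, log axis) and in fibroblast-gated cells (vertical, log axis), with lines of equal level, 2-fold and 100-fold. Col1a2, Col3a1 and Postn lie past the 100-fold line, Fn1 and Timp2 lie between the 2-fold and 100-fold lines, and Igfbp1, Igfbp3, Thbs1 and Lamb3 lie on the hepatoma side.

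The insulin-like growth factor binding proteins were divided between the classes. These secreted proteins bind the growth factors and set how much reaches the receptor. Igfbp7, Igfbp5 and Igfbp3 stood at 826, 523 and 673 CPM in fibroblast-gated cells, and Igfbp7 and Igfbp5 at 1.44 and 0.23 in hepatoma-gated cells. Igfbp5 was unevenly spread, with UMIs in 13 of 66 cells and 39.3% of them in 1 cell. Igfbp1 was the leading member of hepatoma-gated cells, at 4579 CPM, and Igfbp3 followed Fn1 there at 1114 CPM. Nearly all hepatoma-gated cells held Igfbp1, 5532 of 5533, with a median of 68 UMIs. Igfbp2 had 1 UMI in fibroblast-gated and 21 in hepatoma-gated cells, and its ratio of 11.8 (0.29 to 73.4) was called on those counts.

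A single cell set the fibroblast levels of Igfbp1 and Igfbp3. The deepest of the 66 cells, with 85988 UMIs against 40274 in the next, had 8 fibroblast and 11 hepatoma markers and held 64.9% of the Igfbp1 UMIs and 52.9% of the Igfbp3 UMIs of its class. Igfbp1 in fibroblast-gated cells was 1818 CPM with this cell and 753 CPM without it, which moved its ratio to hepatoma-gated cells from 0.40 (0.37 to 0.42) to 0.16 (0.15 to 0.18). Igfbp3 went from 673 to 374 CPM and its ratio from 0.60 (0.55 to 0.67) to 0.34 (0.29 to 0.39), which then counted as lower. The hepatoma markers reached at most 39.4% of their hepatoma level in fibroblast-gated cells with this cell and 21.6% without it. Igfbp1, at 39.7% (37.3 to 42.2) with it and a ratio of 0.16 without it, was not above the markers beyond counting error in either case and is not read as expression, and Lamb3, at 23.1% (7.49 to 53.9) with 5 UMIs, could not be told from it. Thbs1, a thrombospondin with a ratio of 0.79 (0.67 to 0.94) with the cell, had 0.68 (0.55 to 0.83) without it. Without the cell 54 genes were called higher, with Pcolce in place of Adamtsl5 (2.44 with the cell and 2.08 without it), and 3 lower, and Col1a2 changed from 9902 to 11624 CPM. The counts against macrophage-gated cells became 55 higher, without Igfbp3, and against T-cell-gated cells 57 higher, without Igfbp1. On the mean deposited scale, which weights cells equally, Igfbp1 was lower in fibroblast-gated than in hepatoma-gated cells by 1.56 to 1.94 and Igfbp3 by 0.81 to 1.48 over the 6 sets.

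The Timp genes, inhibitors of matrix metalloproteinases, were higher in fibroblast-gated than in hepatoma-gated cells. Timp1 stood at 751 CPM in fibroblast-gated, 34.1 in hepatoma-gated, 11.0 in macrophage-gated and 5.74 in T-cell-gated cells. Timp2 stood at 750, 206, 166 and 38.6 in the same order, and Timp3 at 496, 93.7, 24.2 and 9.48. Over the 6 sets Timp2 had means of 1.68 to 2.44 in fibroblast-gated, 0.94 to 0.98 in hepatoma-gated, 0.43 to 0.56 in macrophage-gated and 0.17 to 0.22 in T-cell-gated cells, with no overlap between the classes. As a share of the hepatoma level, Timp1 and Timp3 lay at 32.3% and 25.8% in macrophage-gated and at 16.9% (12.2 to 22.7) and 10.1% in T-cell-gated cells, not above the hepatoma markers beyond counting error, and their levels there are not read as expression. Timp3 kept the same order over the sets, while Timp1 means were 0.03 to 0.07 in macrophage-gated and 0.02 to 0.03 in T-cell-gated cells.

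The 4 highest members, Igfbp1, Fn1, Igfbp3 and Thbs1, were the same in hepatoma-gated, macrophage-gated and T-cell-gated cells. Macrophage-gated cells had 1252 CPM of Igfbp1, 629 of Fn1, 327 of Igfbp3, 192 of Thbs1, 166 of Timp2 and 53.7 of Pcolce. T-cell-gated cells had 539 CPM of Igfbp1, 232 of Fn1, 144 of Igfbp3, 43.9 of Thbs1 and 38.6 of Timp2, then 29.8 of Lamb3. As a share of the hepatoma level, Igfbp1, Fn1 and Igfbp3 lay at 27.3%, 27.4% and 29.4% in macrophage-gated cells, where 19 hepatoma markers lay between 15.3% and 39.6%. In T-cell-gated cells they lay at 11.8%, 10.1% and 12.9%, and 20 markers lay between 8.12% and 16.7%. The levels of these 3 genes in both classes were therefore at that of hepatoma RNA and are not read as expression. Pcolce lay at 31.6% (26.3 to 37.8) in macrophage-gated and 17.4% (15.2 to 19.9) in T-cell-gated cells, and Lamb3 at 42.4% (29.8 to 58.5) in macrophage-gated cells, so neither was above the markers beyond counting error.

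Of the members with hepatoma levels above 100 CPM, Thbs1 and Timp2 lay above that range in macrophage-gated cells. Timp2 reached 80.8% (72.9 to 89.5) and Thbs1 64.2% (58.3 to 70.5) of the hepatoma level. Timp2 was found in 212 of 618 cells and Thbs1 in 209, with at most 3.44% of the UMIs in 1 cell. In T-cell-gated cells Lamb3 reached 77.5% (67.5 to 88.7) of the hepatoma level, spread over 189 of 1211 cells, and Timp2 18.8% (16.7 to 21.1).

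Set against each other, macrophage-gated cells had 15 of 42 genes higher than T-cell-gated cells, or 35.7%, against 35.6% of all genes, and 3 lower (25.5% of all genes). The share called higher was thus at the background, and the median log2 ratio was 0.65 over the members and 0.58 over all genes. The 4 leading genes by the log2 ratio of (CPM + 1) had CPM ratios of 8.39 (4.05 to 18.7) for Loxl3, 8.42 (3.75 to 20.7) for Vcan, 4.37 (3.77 to 5.05) for Thbs1 and 4.31 (3.69 to 5.04) for Timp2. The first 2 rest on 28 and 23 UMIs in macrophage-gated cells, and for all 4 the mean was higher in all 6 sets. The genes called lower were Igfbp7, with 2 UMIs against 207 in T-cell-gated cells and a lower mean in all 6 sets, Igfbp2 and Col16a1. The 30 Igfbp2 UMIs of T-cell-gated cells came from 3 cells, 56.7% of them from 1, and Col16a1 had 10 UMIs there.

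Splits within the immune classes, chosen after values had been seen, gave Timp2 and Igfbp7 by subset. The share of all genes called was not counted for these splits, so counts of members called are not read as particular to them. T-cell-gated cells with Cd4 and without Cd8a or Cd8b1 (964 cells in all sets, 81 in set 1) had 123 CPM of Timp2 against 31.6 in cells with Cd8 genes and without Cd4, a ratio of 3.91 (2.82 to 5.33). Igfbp7, also called angiomodulin, had 82.3 CPM against 24.3, a ratio of 3.39 (2.27 to 4.93). In this split 7 of 33 members with enough UMIs were called higher and 10 lower. Their median log2 ratio was 0.01, against -0.05 over all genes. The differences of means were above 0 in all 6 sets, at 0.26 to 0.45 for Timp2 and 0.17 to 0.29 for Igfbp7, and the median totals of set 1 were 3446 and 4896.5 UMIs. Among the Cd4 cells those with Foxp3, the regulatory T-cell factor, had lower Igfbp7 means in all 6 sets, by 0.14 to 0.42, and higher Timp2 means, by 0.12 to 0.46. In set 1 these were 23 cells against 58, with median totals of 4830 and 3067 UMIs. Timp2 was not past 2-fold in those counts, where 0 of 7 members with enough UMIs were called higher and 2 lower. The median log2 ratio was 0.19 over these members and 0.095 over all genes. Macrophage-gated cells with Mrc1, the mannose receptor, had 203 CPM of Timp2 and the others 106, a ratio of 1.92 (1.51 to 2.46) that was not past 2-fold. Of 22 members with enough UMIs 0 were called higher and 0 lower in this split. Median totals were 3419 and 2177 UMIs, and the part of depth in the Timp2 difference was not tested.

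Hepatoma-gated cells were then ranged by 6 short gene lists, and the top 20% of each list (1106 or 1107 cells of set 1) were set against the rest. These are ranges of a score and not cell types, and 169 to 722 cells lay within 0.05 of the 6 limits. Most genes of the hepatocyte-like list are also markers of the hepatoma gate, and the Ppbp and Slco1b2 lists hold 3 genes each. Few matrix genes were called. In the hypoxic range 2 of 61 genes were higher and 1 lower, against 6.29% and 16.6% of 1891 genes. The G2/M range had 0 higher and 3 lower (7.88% and 6.19% of all genes), and the S phase range 0 and 3 (7.72% and 6.29%). The hepatocyte-like range had 0 and 2 (8.83% and 2.96%), the range of the Ppbp list 3 and 0 (3.75% and 6.82%) and that of the Slco1b2 list 0 and 5 (3.49% and 8.88%).

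Igfbp3 was the matrix gene that differed most in the hypoxic range. It stood at 2594 CPM in the top cells and 800 in the others, a ratio of 3.24 (3.21 to 3.27), and at 57.2 against 20.9 UMIs per cell. Igfbp1 stood at 7412 against 3980 CPM, a ratio of 1.86 (1.85 to 1.87) that was not past 2-fold. Lamb1 stood at 49.3 against 19.98 CPM, a ratio of 2.47 (2.30 to 2.65), and Sparc at 91.0 against 236 CPM, a ratio of 0.39 (0.37 to 0.40). The difference of means had the same sign in all 6 sets for each of these, at 0.88 to 1.07 for Igfbp3, 0.31 to 0.64 for Igfbp1, 0.11 to 0.19 for Lamb1 and -0.40 to -0.51 for Sparc. Median totals were 17161 UMIs in the top cells and 19962 in the others.

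The same 3 genes were lower in cycling cells. In the G2/M range Igfbp3 stood at 505 against 1344 CPM, Igfbp1 at 2514 against 5359 and Lamb1 at 12.3 against 29.9, with ratios of 0.38 (0.37 to 0.38), 0.47 (0.47 to 0.47) and 0.41 (0.37 to 0.45). The S phase range gave 0.35 (0.35 to 0.36), 0.44 (0.43 to 0.44) and 0.44 (0.40 to 0.48). Median totals were 29186 UMIs in the G2/M range and 17531 in the others, and the part of depth was not tested. Igfbp3 was also lower per cell, at 17.5 against 30.8 UMIs, as was Igfbp1, at 87.0 against 123. The hypoxic score was lower by 0.37 (median) in G2/M cells, so these ranges are not independent, and the part of each was not tested. The range of the Slco1b2 list, whose hypoxic score was lower by 0.29, had Igfbp3 at a ratio of 0.43 (0.42 to 0.44) and Lamb1 at 0.45 (0.40 to 0.50). In the hepatocyte-like range the hypoxic score differed by -0.014. None of the 3 genes was past 2-fold there. Their UMIs per cell were 183 against 98.8 for Igfbp1, 38.7 against 25.5 for Igfbp3 and 0.89 against 0.57 for Lamb1. Median totals there were 22371 and 18558 UMIs, and the part of depth and of the hypoxic score was not tested.

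**Figure D3:**
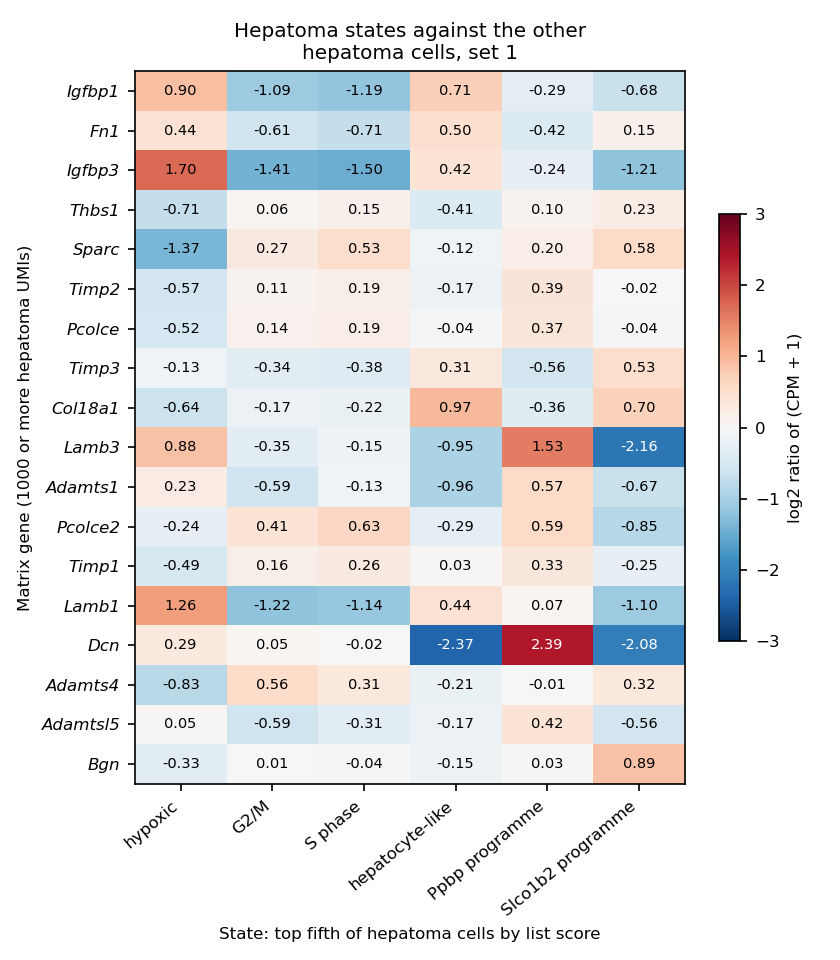
Log2 ratio of (CPM + 1) between the top 20% of hepatoma-gated cells of set 1 for each of 6 gene lists and the other hepatoma-gated cells, for the 18 matrix genes with at least 1000 UMIs in that class. Igfbp3, Igfbp1 and Lamb1 are red in the hypoxic column and blue in the G2/M and S phase columns, while Dcn runs from -2.37 in the hepatocyte-like column to 2.39 in the Ppbp column.

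**Figure D4:**
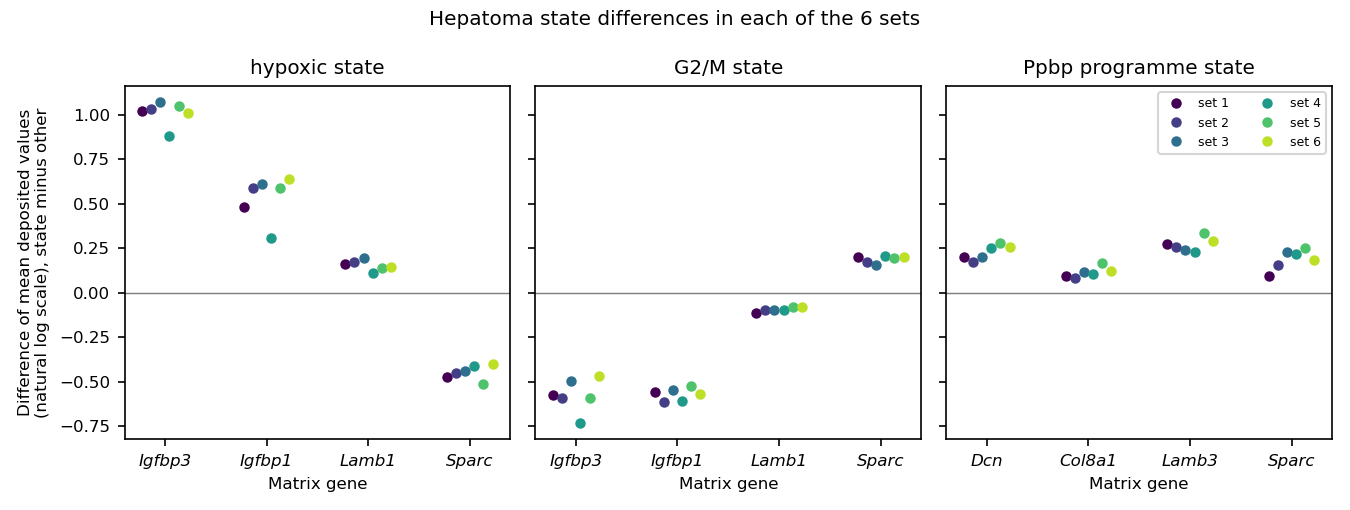
Difference of mean deposited values (natural log scale) between the top 20% of hepatoma-gated cells and the rest in each of the 6 sets, 1 point per set, for 3 lists and 4 genes each. Igfbp3 lies above 0 in all sets in the hypoxic range, between 0.88 and 1.07, and below 0 in all sets in the G2/M range.

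Dcn, Col8a1 and Lamb3 were the genes called higher in the range of the Ppbp list. In this range, whose list also holds Anxa1 and Tff2, Dcn stood at 53.1 against 9.31 CPM, a ratio of 5.71 (5.27 to 6.18), and Col8a1 at 18.9 against 3.32, a ratio of 5.70 (4.99 to 6.52). Lamb3 was 2.95-fold higher (2.80 to 3.12), at 79.7 against 27.0 CPM. Dcn was detected in 33.5% of these cells against 12.4%, and in 4.07% against 1.22% when each cell was thinned to 1000 UMIs. Genes that led the fibroblast-gated cells were not past 2-fold there, with ratios of 0.92 (0.74 to 1.13) for Col1a2, 0.77 (0.50 to 1.14) for Postn and 1.28 (1.02 to 1.59) for Col3a1. In the hepatocyte-like range Dcn had a ratio of 0.16 (0.13 to 0.19) and Col8a1 0.23 (0.18 to 0.30), and in that of the Slco1b2 list 0.20 (0.17 to 0.24) and 0.27 (0.21 to 0.35), with Lamb3 at 0.21 (0.18 to 0.23). The sign held in all 6 sets for the 3 genes in the Ppbp range (0.17 to 0.28 for Dcn, 0.08 to 0.17 for Col8a1 and 0.23 to 0.34 for Lamb3).

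The share of the fibroblast level found in hepatoma-gated cells differed between these genes. It was 0.039% (0.036 to 0.043) for Col1a2, 0.040% (0.036 to 0.044) for Col3a1 and 0.042% (0.036 to 0.049) for Postn. Col8a1 had 0.60% (0.54 to 0.66) and Dcn 1.30% (1.20 to 1.41). The intervals of Dcn and Col8a1 did not overlap those of the other 3 genes, which were chosen because they led the fibroblast-gated cells. Over the 47 members with the most UMIs in fibroblast-gated cells the median share was 0.20%, with quartiles of 0.097% and 1.66%. Col1a2 was the lowest of these, and Col3a1 and Postn also lay below the lower quartile. Dcn and Col8a1 lay between the median and the upper quartile, so their shares were not unusual among the members. The source of this RNA was not tested. Dcn was held by 918 of the 5533 hepatoma-gated cells, with 2.86% of its UMIs in 1 cell.

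Within the fibroblast-gated cells 2 patterns were seen. Cells with at least 2 of Pi16, Dpt, Clec3b and Mfap5, markers of adventitial fibroblasts, and none of Rgs5, Notch3 and Cspg4 numbered 604, and cells with at least 2 of the latter, which mark pericytes and other mural cells, and none of the former numbered 49, after the deepest cell was left out. In set 1 these were 36 and 9 cells with median totals of 6380 and 5496 UMIs, and sets 3 and 4 had 256 and 28, and 99 and 6. This split was chosen after values had been seen, and all 7 genes belong to the gate. In the counts of set 1, 28 of 57 genes were higher in the Dpt-Pi16 cells (43% of all genes) and 14 in the Rgs5-Notch3 cells (18.9% of all genes). The means of sets 1, 3 and 4 had the sign of the ratio for 23 of the 28 and 13 of the 14. The ratio itself comes from set 1, and the share of all genes with such signs was not counted.

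Among the 14 genes higher in the Rgs5-Notch3 cells were the basement membrane collagens Col4a1, Col4a2, Col15a1 and Col18a1. Col4a1 stood at 88.8 CPM in the Dpt-Pi16 cells and 3527 in the Rgs5-Notch3 cells, a ratio of 0.025 (0.016 to 0.038). Col15a1 stood at 19.7 against 1195, Col4a2 at 6.58 against 843 and Col18a1 at 26.3 against 490. Mgp stood at 398 against 5310, Igfbp7 at 497 against 2449, and Sparcl1, a Sparc relative, at 0 UMIs against 30. For all 7 the means of sets 1, 3 and 4 were higher in the Rgs5-Notch3 cells.

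Among the 28 genes higher in the Dpt-Pi16 cells, a share close to that of all genes, were Dcn, Lum and the elastic fibre genes Eln and Fbn1. Dcn stood at 2325 CPM against 0 UMIs, at least 39.5-fold higher when set against 3 UMIs, and by the same floor Eln was at least 18.5-fold, Igfbp5 16.5-fold, Efemp1 13.6-fold, Lum 11.5-fold and Adamts5 8.89-fold higher. Fbn1, fibrillin of elastic fibres, stood at 2568 against 588, a ratio of 4.37 (3.04 to 6.52). Col3a1 had a ratio of 6.09 (4.95 to 7.59) and Timp2 one of 4.02 (2.36 to 7.42), with means higher in sets 1, 3 and 4. Col1a2, with a ratio of 2.28 (2.02 to 2.59), differed less, and Col1a1, at 2.32 (1.97 to 2.74), had a mean lower by 0.04 in set 3. Sparc, at 1.19 (1.08 to 1.31), and Serpinh1, at 1.57 (1.29 to 1.94), were not past 2-fold. Loxl3 went against itself, with a ratio of 2.28 (0.93 to 7.25) and lower means in sets 1, 3 and 4, and Igfbp3, at 0.26 (0.18 to 0.39), had means of both signs.

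**Figure D5:**
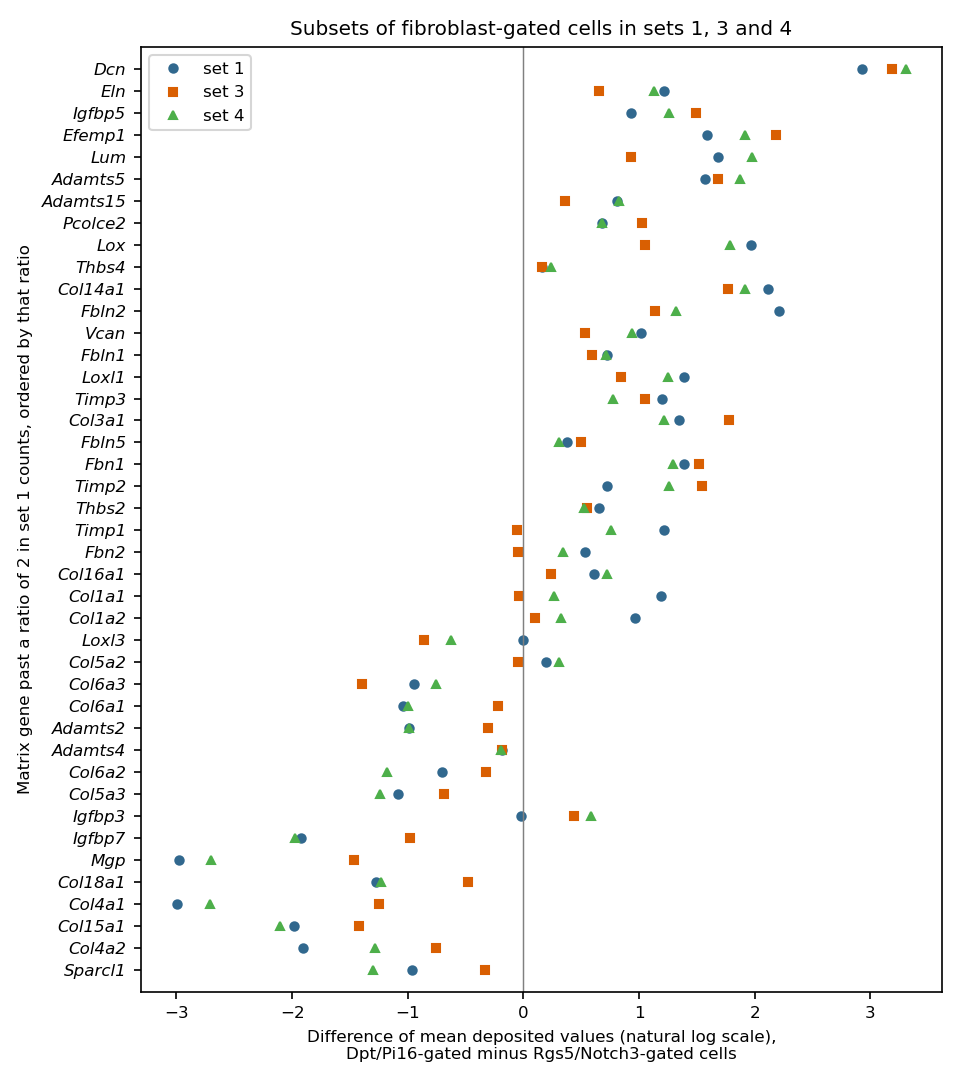
Difference of mean deposited values (natural log scale) between Dpt-Pi16 and Rgs5-Notch3 cells of the fibroblast gate in sets 1, 3 and 4, for the 42 matrix genes past a 2-fold ratio in the counts of set 1, ordered by that ratio. Dcn lies to the right at 2.92, 3.19 and 3.31 and Col4a1 to the left at -2.99, -1.25 and -2.71.

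Other genes of matrix biology were taken from lists. All 3 collagen-modifying enzymes in the table, Fkbp10, P4ha3 and P4ha2, were higher in fibroblast-gated than in hepatoma-gated cells, where 28.4% of all genes were higher and 28.8% lower. Of 23 other matrix and basement membrane proteins 20 were higher and 2 lower, Vtn, vitronectin of the liver, and Tgfbi. Leaving out the 6 that were used in the fibroblast gate, the counts were 14 and 2 of 17, with a median log2 ratio of 5.55 against -0.28 over all genes. Of 14 matrix-degrading enzymes outside the gate 6 were higher and 1 lower, with a median of 0.55. Of 10 matrix receptors 3 were higher, near the share of all genes, and 4 lower, with a median of -0.81, among them the laminin receptor chain Itgb4 at 3.54 against 31.6 CPM.

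The enzymes and the structural genes differed in which class was high. Macrophage-gated cells had 10 of 11 matrix-degrading enzymes higher than T-cell-gated cells and 0 lower, against 35.6% and 25.5% of all genes. Mmp12, the macrophage elastase, stood at 3632 against 20.6 CPM, and Mmp13, a collagenase, at 1520 against 8.94. Against macrophage-gated cells the fibroblast-gated cells had 4 of 13 of these enzymes higher and 8 lower (33.5% and 27.7% of all genes), with a median of -2.10 against 0.07 over all genes. Among 12 signals of the TGF-beta, IGF and CCN families 9 were higher in fibroblast-gated than in hepatoma-gated cells (28.4% of all genes), with Ccn2 at 794 against 37.3 CPM and Igf1 at 209 against 0.74, and Igf2, Bmp4 and Inhbb were lower. Ccn1 and Ccn2 are the genes once named Cyr61 and Ctgf, and under their present symbols the selection by symbol did not take them.

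The genes most like a member were named by the Pearson correlation of log2(CPM + 1) over 8 classes of set 1, which share depth and gates, and the values are descriptions. Igfbp1 was nearest to Aldh1a1 (0.98), Krt8 (0.97) and Alb (0.97). Igfbp3 was nearest to Wars (0.97), Cavin3 (0.95) and Tm4sf1 (0.94). Dcn was nearest to Serping1 (0.97), Tnfrsf11b (0.94) and Gfpt2 (0.93), and Igfbp7 to Ppic (1.00), Hspb1 (0.99) and Lrrc32 (0.99). Col1a1 and Col14a1 were each other's nearest gene (0.99), and so were Postn and Col12a1 (1.00).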

How the data were processed

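Libraries of Hepa1-6 tumour cells were made with the DNBelab C4 droplet kit (labels' protocols). STAR 2.7.2b was the aligner, per the submitters' processing notes. UMIs were counted with PISA and cells were chosen with barcodeRanks, per the labels' protocols. The protocols name GRCh38 and the processing notes list GRCh38 and mm10, so the build is unclear, and coordinates are printed for RefSeq promoters alone. The authors deposited natural log values, which in set 1 are those of 1 plus UMIs per 10000, and the steps that made the pooled table are not given in the sources used here. All 53528 columns belong to no known sample.

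UMI totals were recovered for 100% of set 1 cells, and the genes of the table held 15.0% of their UMIs. A marker counted above a value of 0.3. Cells outside the hepatoma gate needed fewer than 12 hepatoma markers. Scrublet, run through scanpy 1.11.5 at an expected 6%, marked as doublets 68 of 9370 set 1 cells (0.73%), and these were left out of the counts. CPM is a gene's summed UMIs in a class over the summed totals of its cells. CPM intervals are exact Poisson and ratio intervals exact conditional Poisson, at 95%, and cover counting error only. Ratios were called with a pseudocount of 1 CPM. The code was tested on simulated counts. Python 3.11.15 with scipy 1.17.1 was used.

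The members, markers and lists were chosen with earlier results of these data known, and the number of markers required was settled on the files. Genes named with values were the 6 highest members of each main class, the 4 largest ratios in each direction per class contrast, the 3 largest per hepatoma range, and every collagen, Igfbp and Timp gene with 100 UMIs. Others are named as examples chosen after their values were seen. Alternatives were a pseudocount of 5 CPM, a ratio past 4, no UMI minimum, a gate stricter by 1 marker, means over cells, doublets kept, thinning to 1000 UMIs and a gate of collagens and Dcn. Added after seeing the data were keeping cells with many hepatoma markers, leaving out the deepest fibroblast-gated cell and the splits within classes.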

Additional observations from a re-analysis of the deposited data

How the results depend on the processing

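The counts of members called higher in fibroblast-gated cells (54, 56 and 58) stayed within 1.5 times under every alternative run, and no sign of a called gene was reversed. Counts that moved further were small or between macrophage-gated and T-cell-gated cells, where 15 genes were called higher and 3 lower. A pseudocount of 5 CPM gave 8 and 1, a ratio past 4 gave 4 higher, thinning to 1000 UMIs gave 8 and 1, and a stricter gate and means over cells each gave 5 lower. With a ratio past 4, 0 genes were lower in fibroblast-gated than in hepatoma-gated cells and 0 than in T-cell-gated cells. Against macrophage-gated cells means over cells and thinning each gave 1 lower in place of 0. Over the 6 hepatoma ranges the 5 higher and 14 lower calls became 2 and 3 with a ratio past 4, and 9 and 29 after thinning, and the cause was not tested. A gate of Col1a1, Col1a2, Col3a1 and Dcn took 61 cells, 59 of them also in the marker gate. It gave 55 genes higher and 3 lower than hepatoma-gated cells. These 4 genes are members, each left out of the gate for its own ratio only, so these counts are not an independent check. Of the values of single genes under the alternatives, 1013 stayed within their counting interval and 443 moved past it. Levels below 3 UMIs of a class (5.32 CPM in fibroblast-gated and 1.32 CPM in macrophage-gated cells) were not detectable at this depth. No paired analysis was possible because no cell could be tied to a group and each group counted as 1 sample.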

Other observations

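Smaller gates of set 1 also held matrix genes. The 9 endothelial-gated cells, chosen by markers of vessel lining, had 16466 CPM of Igfbp3, 7392 of Sparc, 3123 of Col4a1, 1552 of Igfbp7, 1238 of Sparcl1 and 998 of Col4a2. All 9 cells held Igfbp3, from 1 to 265 UMIs with a median of 92, and 29.7% of its UMIs were in 1 cell. Col1a2, Col3a1 and Dcn had 0, 0 and 1 UMIs there. The floor of 3 UMIs in these cells is 55.4 CPM, and the exact 95% upper limit for 0 UMIs is 68.2 CPM.

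Monocyte-gated cells (44 in set 1) had 157 CPM of Vcan, in 17 cells, against 10.1 in macrophage-gated cells, a ratio of 15.5 (8.31 to 28.9), and 640 CPM of Thbs1 against 192, a ratio of 3.34 (2.64 to 4.18). Timp2 went the other way, at 34.1 against 166 CPM. Of 22 members with enough UMIs 3 were higher and 12 lower in monocyte-gated cells, and the sign held in each set for 2 and 7 of these. The median log2 ratio was -1.11 over these members and -0.52 over all genes, whose share called was not counted for this split. The counts are therefore not read as particular to the members. For Vcan, Thbs1 and Timp2 the differences of means had the same sign in all 6 sets. They were 0.25 to 0.62 for Vcan, 0.13 to 0.66 for Thbs1 and -0.23 to -0.41 for Timp2. Neutrophil-gated cells (47 in set 1) had 361 CPM of Lamb3, against 38.4 in hepatoma-gated cells, in 17 of 47 cells.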
